A study of Mus musculus with 12 samples.

Results

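Supernatant of melanoma cells that carry eGFP but no Ifnb1 transgene was compared with plain medium on macrophages, as the effect of the melanoma supernatant without tumoral IFNβ. The comparison holds 6 of the 12 libraries of the series, which are the 3 labelled as eGFP supernatant and the 3 labelled as untreated control. Of 56748 genes listed, the 15033 that passed a filter on low counts were tested.

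The cells of all 6 libraries were bone marrow-derived macrophages (BMDM) of C57BL/6J mice, 3 mice per condition, grown in IMDM medium with M-CSF at 20 ng/mL. IL4 (10 ng/mL, 48 hours) was used to polarize all of them to M2-like cells, which were kept for another 72 hours under their condition before RNA was isolated. The eGFP supernatant came from YUMM5.2 eGFP cells, a male mouse melanoma line with a doxycycline (Dox)-inducible eGFP vector, after 72 hours in Dox at 1 μg/mL. It was diluted in BMDM medium at the ratio used for the supernatant of YUMM5.2 Ifnb1eGFP cells, which makes IFNβ. Untreated macrophages received BMDM medium alone. Donor cells were kept in DMEM/F-12 medium with puromycin, so products of the melanoma cells, the other medium and residual Dox or puromycin cannot be told apart in this comparison. A further 6 libraries, with Ifnb1eGFP supernatant or recombinant IFNβ (rIFNβ), both at 1500 pg/mL IFNβ, served as a second pair of groups with and without melanoma supernatant.

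Macrophages take up and digest extracellular material in lysosomes, where cathepsins and legumain cut proteins. IL4 drives an M2-like program with mannose receptor and secreted lectins, while type I interferon turns on many interferon-stimulated genes through the receptor IFNAR. Tumor-derived factors such as CSF1, TGFβ, prostaglandin E2 and lipids are known to act on macrophages of the tumor microenvironment.

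The libraries held 31526034 to 42062583 counts without treatment and 39181022 to 41958862 with eGFP supernatant. All 15 macrophage lineage markers (Adgre1, Csf1r, Cd68 and others) were detected in each of the 6 libraries. Of 15 melanocyte markers, 6 to 9 per library were at 0, and Mitf, which macrophages also express, at 152 to 167 CPM (counts scaled to the size of each library), made up nearly all of their sum of 153 to 169 CPM. Summed over 8 Y-linked genes, no library held more than 1 count. The M2 marker Mrc1, the mannose receptor, was at 609 to 813 CPM, and the IL4-induced genes Retnla and Chil3 were at 53.0 to 81.5 CPM. Arg1, the arginase of IL4-treated mouse macrophages, was under 1 CPM in every library (0.410 to 0.877).

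One library stood apart from the others in its interferon-stimulated genes. Summed over 51 such genes, the untreated libraries were at 1608, 1315 and 1178 CPM, and the eGFP supernatant libraries at 1583, 3562 and 1265 CPM. All 51 genes were highest of the 6 libraries in eGFP supernatant replicate 2. Among the 3 libraries of its group alone, all 51 were highest there, against 33% of all genes tested. Its sum was 2.56 times the mean of the other 5 libraries, and the libraries with IFNβ were at 27656 to 30900.1 CPM. Ifnb1 itself had 0 counts in all 6 libraries, which at a floor of 3 counts per library shows only that its transcript was not detectable at this depth. What raised these genes in 1 library was not tested.

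**Figure D1:**
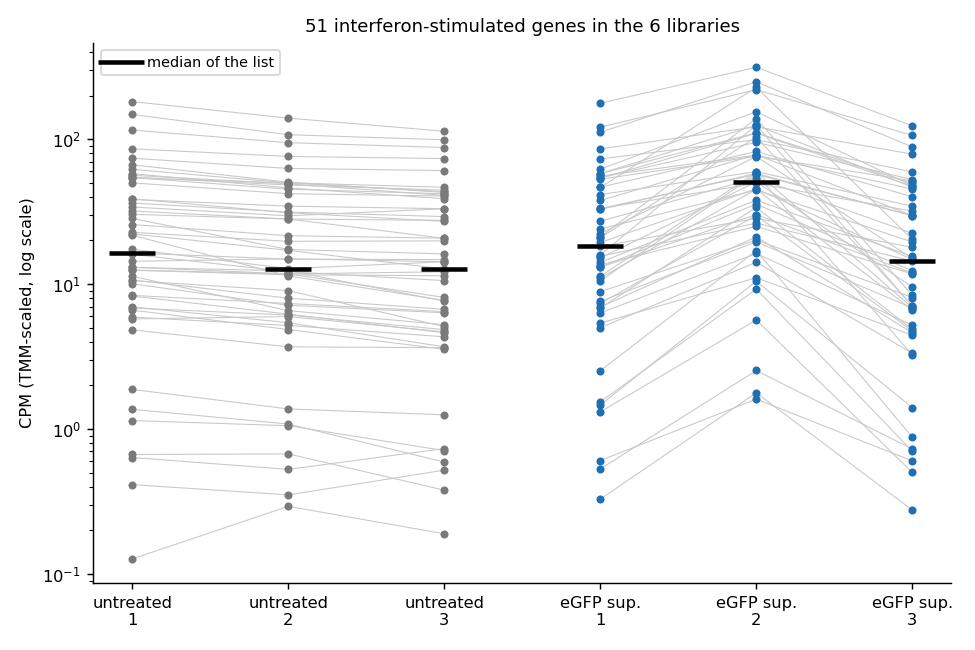
CPM of the 51 interferon-stimulated genes (log scale) in each of the 3 untreated and 3 eGFP supernatant libraries. A grey line joins the same gene within a group, and the black bar is the median of the list, which is 50.7 CPM in eGFP supernatant replicate 2 and 12.7 to 18.2 CPM in the other 5 libraries.

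The response to eGFP supernatant was small and went mostly upward. With edgeR's quasi-likelihood test, taking a Benjamini-Hochberg adjusted p up to 0.05 as called, 45 of 15033 genes changed, which is 0.299% of the genes tested. Of these, 37 rose (0.246%) and 8 fell (0.0532%). Their fold changes were modest, since 6 of the 45 reached a log2 fold change of 1 in either direction and 25 were under 0.5. A single gene, Ctla2a (0.00665% of genes), passed the study's own thresholds, a log2 fold change of 2 in either direction with adjusted p up to 0.01. All 45 genes had groups that did not overlap, as did 15.5% of all genes tested. Over all genes tested the median was 0.00 on the log2 scale.

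The number of calls rested on having all 6 libraries. It fell to 16 (15 higher, 1 lower) without eGFP supernatant replicate 2, the library with raised interferon-stimulated genes, and to 20, 24 and 23 without untreated replicate 1, 2 and 3. Without eGFP supernatant replicate 1 it was 21, and without replicate 3 it was 32. Genes called under each of these omissions numbered 13, and they were Ms4a4a, Cxcr4, Fcgr2b, Apoc2, Lgmn, Scd2, Rassf2, Il6ra, Ctsl, Ms4a6b, Ctla2a, Add3 and Lyz2. The 16 calls without eGFP supernatant replicate 2 were these 13 with Bcl2a1b, Entpd1 and Ggta1. The other 29 genes lost their call without it, at adjusted p of 0.0504 to 0.211, and every call given below for one of them rests on that library being kept. Called under none of the omissions were Gm49392, Pkd1l2, Ephx1, Rnf150, Dock2, Ms4a6d, Igf2bp2, Hdac9, Ptger2 and Fbxo32. None of the 45 changed direction under any omission. Their groups did not overlap, so leaving out a library could hardly reverse them, and this is no measure of stability.

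**Figure D2:**
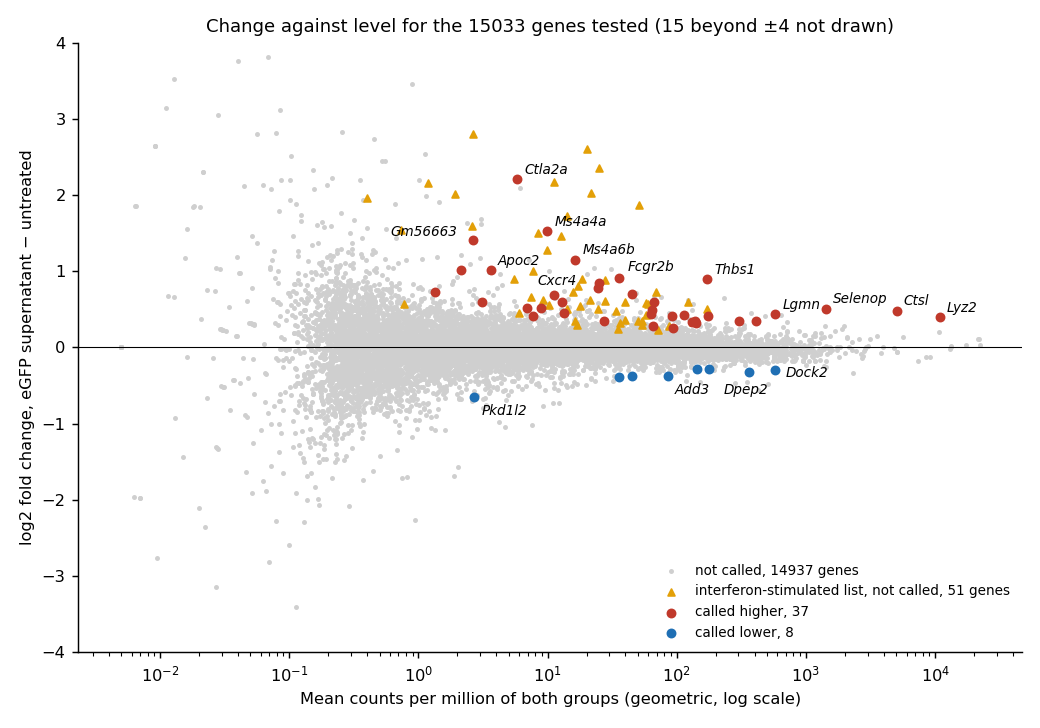
log2 fold change of eGFP supernatant over untreated against the mean CPM of both groups (log scale) for the genes tested, each point 1 gene. The 37 genes called higher (red) and 8 called lower (blue) cover low to very high CPM, and the interferon-stimulated genes (yellow triangles) all lie above 0 with none called.

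The gene with the smallest p, Ms4a4a, belongs to the MS4A family, tetraspan membrane proteins of myeloid cells that sit beside each other on chromosome 19. Of the 10 members tested (18 listed, 14 with any count), 4 were called higher and none lower, and without eGFP supernatant replicate 2 the calls were 2, Ms4a4a and Ms4a6b. The median log2 fold change over the 10 was 0.81, or 0.49 without that library, but it includes 4 members of very low CPM and is given as a description only. Ms4a4a, whose product marks alternatively activated macrophages, read 5.28, 5.94 and 6.36 CPM untreated and 16.9, 17.6 and 16.2 CPM with eGFP supernatant. All 3 treated libraries were well above all 3 untreated ones and close to each other. Its rise was 2.87-fold (log2 fold change 1.52, SE 0.09, adjusted p = 3.45e-05), the smallest p of any gene.

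Ms4a6b read 11.1, 12.2 and 9.49 CPM untreated and 21.1, 30.1 and 21.6 CPM treated (log2 fold change 1.15, SE 0.14, adjusted p = 0.00754). Ms4a6c read 34.8, 37.5 and 32.5 CPM against 53.5, 69.2 and 48.5 CPM (log2 fold change 0.71, SE 0.12, adjusted p = 0.0438). Both were highest in the library with raised interferon-stimulated genes, and both were also higher with rIFNβ than untreated, with log2 fold changes of 5.91 and 4.04 against the same untreated libraries. Without that library Ms4a6b still rose (log2 fold change 0.97, adjusted p = 0.0117), while Ms4a6c was at 0.54 and no longer called (adjusted p = 0.0895). Ms4a6d went from 124, 122 and 126 CPM to 157, 162 and 152 CPM (log2 fold change 0.34, SE 0.06, adjusted p = 0.0437, or 0.211 without that library). Of the members not called, Ms4a7 was at 0.30 (adjusted p = 0.0736) and Ms4a14 at 0.47 (adjusted p = 0.125), both named after their values were seen. The other 4 stayed under 2 CPM in the 6 libraries and passed the filter through the libraries with IFNβ.

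These genes lie beside each other. From Ms4a7 to Ms4a6d (chr19:11298403-11582213, GRCm39) 15 genes were tested. A positive log2 fold change was seen for 13 of them, and for 7665 of all 15033 genes tested. Among the 13, Gm56657, Gm5511, Gm38275 and Ms4a4b had mean CPM of only 0.03 to 0.17 untreated and 0.07 to 0.31 treated. Ms4a4c read 1.88 CPM in eGFP supernatant replicate 2 but 0.43 and 0.23 CPM in replicates 1 and 3. Of the 15, 5 were called higher and none lower. The fifth was Gm56663, a lncRNA of 1.52 to 1.68 CPM untreated and 3.41, 4.995 and 4.57 CPM treated (log2 fold change 1.41, SE 0.19, adjusted p = 0.0103). It starts 48 bases past the annotated end of Ms4a4a on the same strand, so its reads cannot be told apart from an extended Ms4a4a transcript. In all, 8 of the 45 called genes (17.8%) lie on chromosome 19, which holds 3.67% of the genes tested. Besides the 5 of this cluster they were Scd2, Entpd1 and Add3.

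The promoters of the called MS4A genes are shown because these genes lie together and moved together. They run from 250 bases before to 50 bases after the annotated start, from RefSeq on GRCm38.p6, all 3 on the + strand, and Ms4a6d is not in that set. Ms4a4a is chr19:11375238-11375537, Ms4a6b is chr19:11518309-11518608 and Ms4a6c is chr19:11469118-11469417. Capitals mark the longest run that the Ms4a6b and Ms4a6c promoters share, 48 bases that no other of the 32851 promoters holds.
Ms4a4a: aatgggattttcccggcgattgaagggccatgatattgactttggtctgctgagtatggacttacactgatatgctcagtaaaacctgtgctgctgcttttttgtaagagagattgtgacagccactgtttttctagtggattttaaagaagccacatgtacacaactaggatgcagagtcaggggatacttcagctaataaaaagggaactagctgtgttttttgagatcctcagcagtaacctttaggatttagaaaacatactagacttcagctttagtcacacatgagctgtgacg
Ms4a6b: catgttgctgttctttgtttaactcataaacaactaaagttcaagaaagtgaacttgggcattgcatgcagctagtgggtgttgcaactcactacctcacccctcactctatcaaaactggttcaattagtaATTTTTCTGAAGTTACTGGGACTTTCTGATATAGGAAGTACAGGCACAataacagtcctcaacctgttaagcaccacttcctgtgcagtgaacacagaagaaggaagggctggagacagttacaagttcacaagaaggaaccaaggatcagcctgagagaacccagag
Ms4a6c: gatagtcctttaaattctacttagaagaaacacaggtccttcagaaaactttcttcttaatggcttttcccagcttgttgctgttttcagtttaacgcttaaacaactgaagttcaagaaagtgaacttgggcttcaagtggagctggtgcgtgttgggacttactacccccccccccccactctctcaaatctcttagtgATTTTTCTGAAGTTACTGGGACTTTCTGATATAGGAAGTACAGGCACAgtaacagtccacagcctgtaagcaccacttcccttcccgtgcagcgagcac
Aligned end to end, Ms4a6b and Ms4a6c are identical in 54.1% of columns, and Ms4a4a matches them in 52.3% and 51.5%. Columns with gaps are counted in these shares. No unrelated pair of promoters was aligned as a baseline, so the shares alone do not show relatedness. None of these 3 windows holds any of 6 short motifs searched on both strands. The motifs, none of which contains another, were GAAA and GAAA with NN between (interferon-stimulated response element core, in 3.44% of all promoters), TTCNNNGAA (GAS, 8.3%), CACGTG (E-box, 7.15%), TGACGTCA (CRE, 1.79%), GAGGAAGT (PU.1, 3.2%) and TGANTCA (AP-1, 7.81%). Among the 24 genes called higher that have a promoter in the set, 2 held the interferon element, 3 GAS, 4 the E-box, 0 CRE, 2 the PU.1 letters and 2 the AP-1 letters. These counts take a match in any promoter of a gene. Counted that way, the shares among 10371 genes tested were 4.01%, 8.19%, 11.6%, 3.44%, 4.13% and 6.6%, in the same order. Among the 24 they were 8.33%, 12.5%, 16.7%, 0%, 8.33% and 8.33%, and enrichment was not tested.

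Ctla2a had the largest fold change of the called genes. Its product is a cysteine protease inhibitor that resembles the propeptide of cathepsin L. Ctla2a lies at chr13:61081967-61084449 (GRCm39, - strand) and read 1.94, 2.60 and 3.55 CPM untreated and 9.80, 11.8 and 16.3 CPM with eGFP supernatant (61 to 648 counts per library). The groups were far apart although the treated libraries differed among themselves. The rise was 4.63-fold (log2 fold change 2.21, SE 0.27, adjusted p = 0.00754), and omitting single libraries left it between 1.99 and 2.47.

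Ctla2b, a neighbouring copy named after its values were seen, read 18.6, 22.4 and 23.6 CPM untreated and 39.9, 40.6 and 52.2 CPM treated, without overlap. It did not pass in the main fit (log2 fold change 1.04, SE 0.21, adjusted p = 0.0977). With a replicate block in the model it was called higher (adjusted p = 0.00293), as with DESeq2 (adjusted p = 0.00015). Since 23.0% of the 50-base words in Ctla2a transcripts also occur in transcripts of other genes, mainly Ctla2b, the split of reads between the copies is uncertain. The predicted protein-coding gene Gm49392, called higher (log2 fold change 1.01, SE 0.16, adjusted p = 0.0232), shares 99.7% of its words with Ctla2b and other genes and lost its call when any of the 6 libraries was left out. The promoters of both copies are shown because the genes share sequence and reads, and they are identical in 79.9% of aligned columns. They are chr13:60936576-60936875 for Ctla2a and chr13:60897398-60897697 for Ctla2b (GRCm38.p6, - strand). Capitals mark a GAS match, present only in Ctla2a, and an AP-1 match (TGACTCA), present in both.
Ctla2a: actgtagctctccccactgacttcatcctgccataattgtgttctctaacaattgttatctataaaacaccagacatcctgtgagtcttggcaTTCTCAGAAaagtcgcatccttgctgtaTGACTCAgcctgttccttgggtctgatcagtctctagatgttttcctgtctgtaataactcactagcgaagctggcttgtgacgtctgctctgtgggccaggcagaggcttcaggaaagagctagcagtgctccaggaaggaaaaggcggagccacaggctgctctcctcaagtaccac
Ctla2b: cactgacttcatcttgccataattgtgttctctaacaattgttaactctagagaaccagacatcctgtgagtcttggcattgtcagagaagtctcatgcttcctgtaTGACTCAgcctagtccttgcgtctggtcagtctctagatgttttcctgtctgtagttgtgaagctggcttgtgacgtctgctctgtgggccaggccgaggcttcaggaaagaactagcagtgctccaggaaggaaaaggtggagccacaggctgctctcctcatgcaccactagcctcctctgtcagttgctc

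Lysosomal proteases were also among the genes called higher. Ctsl, the endopeptidase cathepsin L, read 4228, 4204 and 4343 CPM untreated and 5942, 5846 and 6036 CPM treated. That is a 1.40-fold rise (log2 fold change 0.48, SE 0.06, adjusted p = 0.00754) with little spread in either group, in a transcript of 133003 to 240519 counts per library. Lgmn, the asparaginyl endopeptidase that processes cathepsins, went from 508, 492 and 494 CPM to 699.8, 694 and 627 CPM (log2 fold change 0.44, SE 0.05, adjusted p = 0.00552). Of 18 cathepsins, legumain and their inhibitors tested, these 2 and Ctla2a were called higher and none lower, with a median log2 fold change of 0.13.

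Other lysosomal genes were not called. None of 51 lysosomal hydrolases and membrane proteins was called (median log2 fold change 0.04, 5 at an unadjusted p under 0.05, against 8% of all genes, and 2 called with DESeq2). The smallest p was that of Scpep1 (log2 fold change 0.19, adjusted p = 0.125). Likewise none of 18 V-ATPase subunits, which acidify the organelle, was called (median -0.03, 2 at an unadjusted p under 0.05, 0 with DESeq2), with Atp6v0a1 nearest at -0.17 (adjusted p = 0.430).

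Several secreted proteins rose as well. Lyz2, lysozyme of myeloid cells and the called gene of highest CPM, went from 8807, 9719 and 9720.2 CPM to 12267, 12092 and 12828 CPM (log2 fold change 0.40, SE 0.05, adjusted p = 0.00754). It was the only one of 15 macrophage lineage markers to be called, and their median was 0.16. Thbs1, the matrix protein thrombospondin 1 that activates TGFβ, read 148, 98.8 and 133 CPM untreated and 213, 242 and 250.01 CPM treated (log2 fold change 0.89, SE 0.14, adjusted p = 0.0217, or 0.0895 without eGFP supernatant replicate 2). The untreated libraries were spread for this gene, yet all lay below the treated ones. Selenop, the selenium carrier, rose by a log2 fold change of 0.51 (SE 0.07, adjusted p = 0.0117) from 1142, 1326 and 1103 to 1742, 1751 and 1585 CPM.

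Rnase4, a secreted ribonuclease, was at 0.78 (SE 0.10, adjusted p = 0.00892), and 46.2% of its words occur in transcripts of the overlapping Ang and its relatives. Of 26 matrix metalloproteinases and inhibitors, 2 were called higher, Mmp27 (log2 fold change 0.60, adjusted p = 0.0107) and Mmp19 (0.42, adjusted p = 0.0163), and none lower. Without eGFP supernatant replicate 2 neither was called (adjusted p = 0.0660 and 0.0633). Mmp9, named after its values were seen, fell from 517, 583 and 456 CPM to 355, 398 and 307 CPM without overlap. Its log2 fold change of -0.55 was not called in the main fit (adjusted p = 0.189). It was called lower with a replicate block in the model (adjusted p = 0.00489) and with DESeq2 (adjusted p = 0.00579). Thbs1 was the only one of 29 regulatory cytokines and tumor-supporting growth factors to be called, and their median was -0.04.

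Several surface receptors were called higher. Cxcr4, the receptor of the chemokine CXCL12, read 18.9, 17.1 and 19.7 CPM untreated and 33.3, 31.5 and 35.3 CPM treated (log2 fold change 0.84, SE 0.06, adjusted p = 0.000193). The 2 groups were tight and far apart. It was the only 1 of 17 chemokine receptors to be called (median log2 fold change 0.13), and also the only 1 of 26 TGFβ response genes (median 0.03).

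Fcgr2b, the inhibitory receptor for IgG, rose 1.88-fold, from 25.0, 27.2 and 25.5 to 50.6, 51.0 and 44.6 (log2 fold change 0.91, SE 0.08, adjusted p = 0.000963). Its relatives, named here after their values were seen, were not called. Fcgr1, an activating receptor, was at 0.66 (adjusted p = 0.204) and highest in the library with raised interferon-stimulated genes, Fcgr3, which shares sequence with Fcgr2b, was at 0.11 (adjusted p = 0.582), and their signalling chain Fcer1g was at -0.13 (adjusted p = 0.334). Of 7 Fc receptor genes tested, Fcgr2b alone was called, and the median was 0.27. An unadjusted p under 0.05 was reached by 5 of the 7 (8% of all genes). Groups did not overlap for 5 higher and 1 lower (15.5% of all genes, in either direction). DESeq2 called 2 higher, Fcgr2b included, and 1 lower.

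Further receptors rose by less. Gpr34, a receptor for lysophosphatidylserine, went from 7.95, 10.2 and 8.33 CPM to 13.7, 14.9 and 13.9 CPM (log2 fold change 0.68, SE 0.09, adjusted p = 0.0110). Il6ra, the IL6-binding chain, was tight within both groups, at 23.4 to 25.1 CPM untreated and 30.6 to 31.7 CPM treated (log2 fold change 0.35, SE 0.04, adjusted p = 0.00754). Icosl, the ligand of the T cell costimulator ICOS, was low, at 0.890 to 1.200 CPM untreated and 1.64 to 1.85 CPM treated (28 to 76 counts, log2 fold change 0.73, adjusted p = 0.0323). Tlr2, the receptor of bacterial lipoproteins, was at 0.51 (adjusted p = 0.0251), Cd93 at 0.35 (adjusted p = 0.0117) and the adhesion receptor Adgre5 at 0.29 (adjusted p = 0.0217). Entpd1, the ectonucleotidase CD39 that degrades extracellular ATP, rose by 0.41 (adjusted p = 0.00916). Ptger2, the prostaglandin E2 receptor EP2, rose by 0.41 (adjusted p = 0.0439), the only called gene of 21 in the prostanoid and leukotriene pathway (median -0.01). None of 27 scavenger and efferocytosis receptors was called (6 at an unadjusted p under 0.05, against 8% of all genes, and 3 with DESeq2). Havcr2 was nearest at 0.36 (adjusted p = 0.0709).

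**Figure D3:**
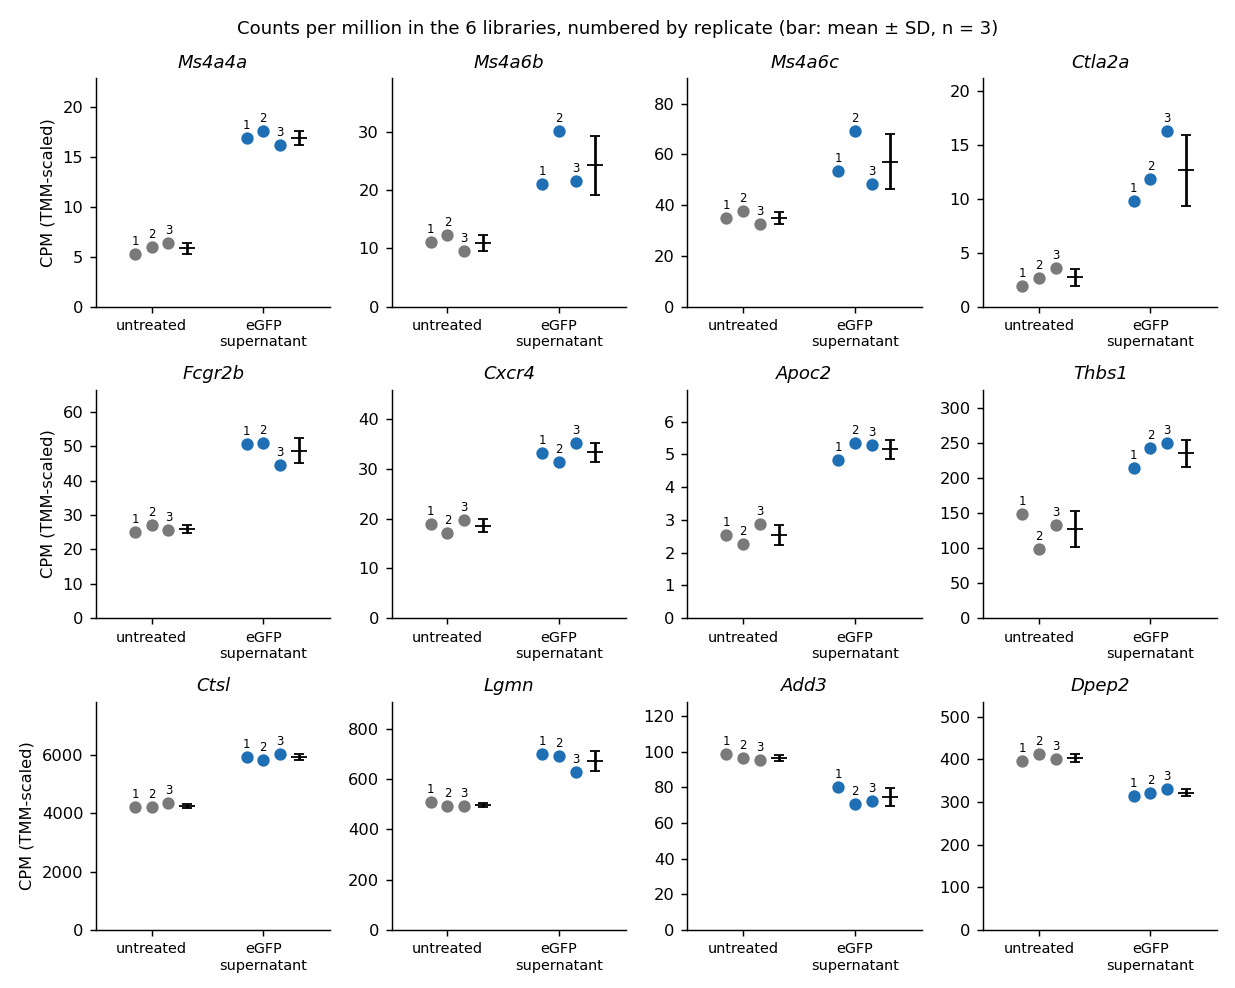
CPM of 12 called genes in the 3 untreated (grey) and 3 eGFP supernatant (blue) libraries, numbered by replicate, with the mean and SD of each group (n = 3) beside the points and every axis starting at 0. The groups do not overlap for any of the 12, and replicate 2 stands above the other treated libraries for Ms4a6b (30.1 CPM) and Ms4a6c (69.2 CPM).

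Of the lipid genes, Apoc2, Scd2 and Arl4c were called. Apoc2, the cofactor of lipoprotein lipase, was low and rose 2.01-fold, from 2.54, 2.25 and 2.86 CPM to 4.83, 5.36 and 5.30 CPM (log2 fold change 1.01, SE 0.10, adjusted p = 0.00196). The annotation overlaps it with Apoc2l, and 39.8% of its words are shared with other genes, so its level is uncertain. It was the only one called of 9 apolipoproteins and lipoprotein lipase (median 0.18).

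Scd2, a fatty acid desaturase, went from 349.8, 369.6 and 364 CPM to 471, 457 and 446 CPM (log2 fold change 0.34, SE 0.04, adjusted p = 0.00739). Arl4c, a small GTPase under control of the sterol receptor LXR, rose by 0.59 (SE 0.09, adjusted p = 0.0251). These 2 were the called ones of 18 LXR targets and cholesterol efflux genes (median 0.08). Scd2 was the only called one of 32 sterol and fatty acid synthesis genes driven by SREBP. Of these 32, 27 had a positive log2 fold change, 16 an unadjusted p under 0.05 (8% of all genes did), and the median was 0.18, or 0.16 without eGFP supernatant replicate 2. Of 24 lipid-associated macrophage genes Ctsl alone was called (median 0.02).

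Among 25 response genes of cAMP or glucocorticoids, 3 were called higher (median 0.17), and none of the 3 was called without eGFP supernatant replicate 2 (median 0.09). Besides Thbs1 and Ptger2 this was Sgk1, a kinase induced by glucocorticoids, at 53.9, 51.2 and 57.2 CPM untreated and 80.4, 75.4 and 73.0 CPM treated (log2 fold change 0.50, SE 0.07, adjusted p = 0.0103). Bcl2a1b, an antiapoptotic gene with near-identical copies that share 74.1% of its words, rose by 0.42 (SE 0.05, adjusted p = 0.00892). The remaining genes called higher were Marcks, Rassf2, Ggta1, Rnf150, Nfxl1, Fbxo32 and the lncRNA Gm10134, with log2 fold changes of 0.25 to 0.59.

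Each of the 8 genes called lower fell by less than a log2 fold change of 0.7. Add3, the cytoskeletal protein adducin 3, went from 98.6, 96.2 and 95.2 CPM to 80.1, 70.8 and 72.5 CPM (log2 fold change -0.38, SE 0.05, adjusted p = 0.00754), and was the only one of the 8 called under every omission. Dpep2, a dipeptidase that converts leukotriene D4, went from 395, 412 and 401 CPM to 315, 320.1 and 330.5 CPM (log2 fold change -0.32, SE 0.04, adjusted p = 0.00892). A second gene of that name shares 34.3% of its words. Tnip3, which restrains NF-κB signalling, read 50.1, 51.7 and 52.7 CPM untreated and 38.8, 38.3 and 42.3 CPM treated (log2 fold change -0.37, SE 0.05, adjusted p = 0.0107). Pkd1l2, of the polycystin family, had the largest fall at -0.65 (SE 0.11, adjusted p = 0.0309) from a low level of 3.18 to 3.52 CPM. Hdac9, a histone deacetylase, was at -0.39 (SE 0.07, adjusted p = 0.0438), and Ephx1, Dock2 and Igf2bp2 were at -0.28 to -0.30. Pkd1l2, Hdac9, Ephx1, Dock2 and Igf2bp2 each lost their call whichever library was left out.

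None of 28 IL4-driven genes was called (median log2 fold change -0.01, 9 at an unadjusted p under 0.05, 2 with DESeq2). The smallest p was that of the receptor chain Il4ra (0.38, adjusted p = 0.179). Of all genes tested, 8% had an unadjusted p under 0.05, so the lack of calls does not show that this list was unchanged. Mrc1 was at 632, 739 and 609 CPM untreated and 711, 813 and 748 CPM treated, ranges that overlap (log2 fold change 0.20, SE 0.08, adjusted p = 0.556). Retnla (0.08, SE 0.14), Chil3 (0.04, SE 0.09) and Arg1 (0.53, SE 0.35) likewise overlapped. Cd86, a costimulatory ligand of M1-like cells, was at 3.85, 5.33 and 4.16 CPM untreated and 6.19, 8.31 and 5.85 CPM treated. Its groups did not overlap but the change did not pass (log2 fold change 0.61, SE 0.15, adjusted p = 0.174), and it was highest in the library with raised interferon-stimulated genes. None of 29 inflammatory activation genes was called (median -0.02, 4 at an unadjusted p under 0.05, 2 with DESeq2), with the NF-κB inhibitor Tnfaip3 nearest at 0.40 (adjusted p = 0.0709).

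The interferon-stimulated genes themselves were all on the positive side without being called. Of the 51, 25 had an unadjusted p under 0.05 (8% of all genes did). With edgeR 0 were called and with DESeq2 1, and the median log2 fold change was 0.61. Without eGFP supernatant replicate 2 the median was 0.07. Ifit2 shows the pattern, at 13.0, 12.4 and 7.64 CPM untreated and 21.1, 139 and 8.38 CPM treated (log2 fold change 2.36, SE 0.77, adjusted p = 0.351). Irf7, the transcription factor that amplifies the response, was at 1.46 (SE 0.57, adjusted p = 0.529), Zbp1, a nucleic acid sensor, at 0.90 (SE 0.42, adjusted p = 0.635), and Ly6e, which had the smallest p of the list, at 0.54 (adjusted p = 0.319). In Ifit2, Irf7 and Zbp1 replicate 2 was far above the other treated libraries, which lay within or near the untreated range.

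**Figure D4:**
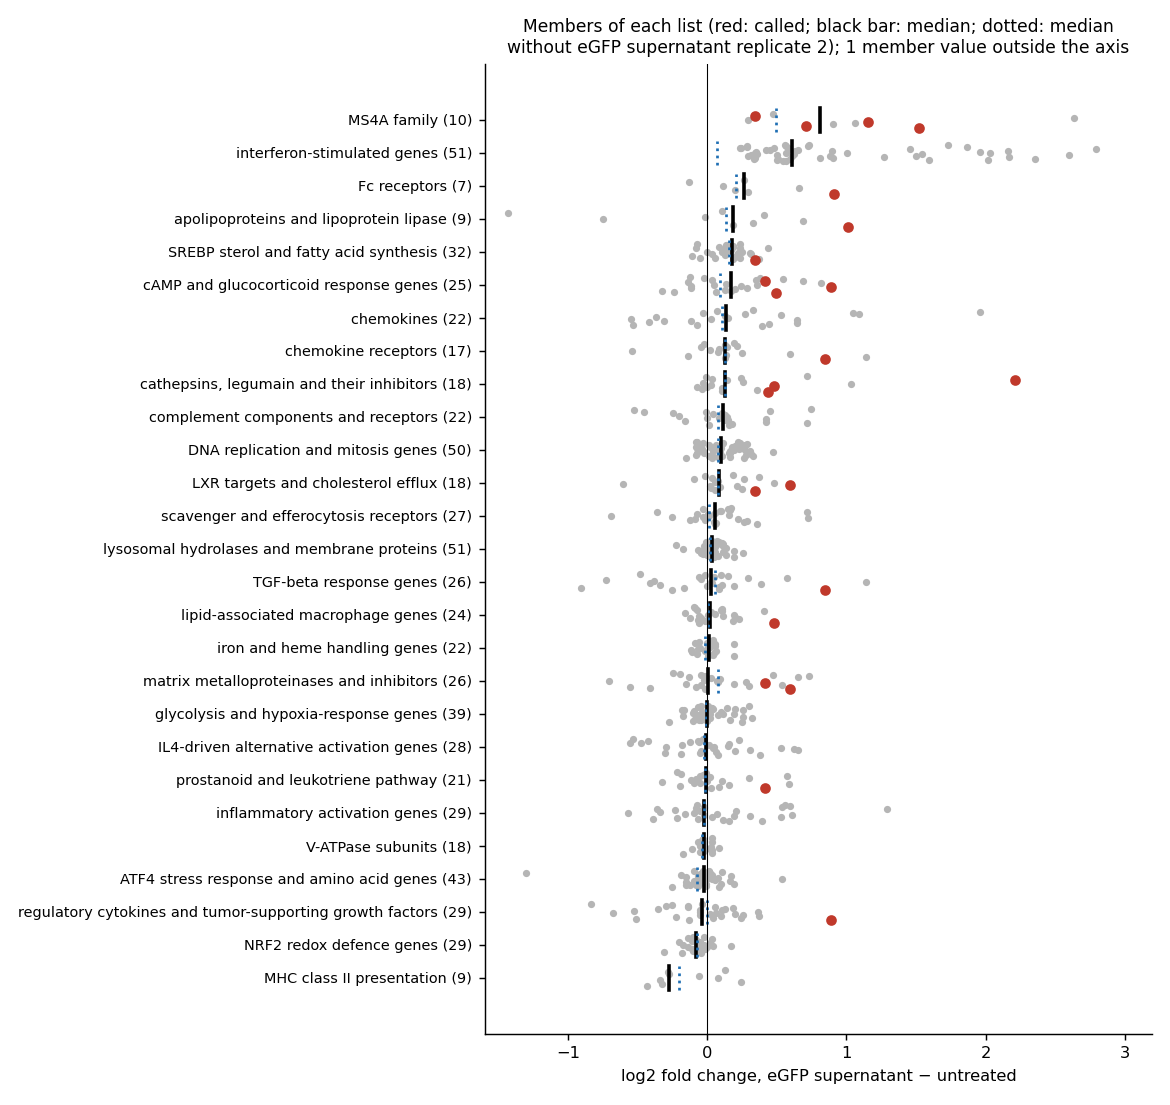
log2 fold change of eGFP supernatant over untreated for the tested members of each gene list (their number in parentheses), each point 1 gene, red where called. Black bars give the list's median and dotted bars the median without eGFP supernatant replicate 2, an omission that moves the median of the interferon-stimulated genes from 0.61 to 0.07 and that of the MS4A family from 0.81 to 0.49.

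Lists of immune function, metabolism, stress and proliferation also held no called gene. Complement (22 tested, nearest Itgam at 0.16), iron and heme handling (22, Trf at 0.19), glycolysis and hypoxia response (39, Mxi1 at 0.25), ATF4 targets (43, Psat1 at -0.25), NRF2 redox defence (29, Gsr at -0.18) and DNA replication and mitosis (50, Pcna at -0.15) had smallest adjusted p of 0.0593 (Mxi1) to 0.345 (Gsr). In that order of lists 5, 2, 7, 4, 4 and 6 genes had an unadjusted p under 0.05, and DESeq2 called 3, 1, 2, 1, 0 and 1. For these lists and the chemokine and MHC class II lists below, the share over all genes tested with such a p was 8%. Of the 29 NRF2 genes, 25 had a negative log2 fold change and the median was -0.08. Pcna fell, but 38 of the 50 DNA replication and mitosis genes had a positive log2 fold change. Their median was 0.10, or 0.08 without eGFP supernatant replicate 2. Over all 15033 genes tested, 7665 were positive and 7358 negative. None of 22 chemokines was called (median 0.14, 6 at an unadjusted p under 0.05, 3 with DESeq2), with Cxcl16 nearest at 0.39 (adjusted p = 0.221). Of 9 MHC class II presentation genes none was called either (4 at an unadjusted p under 0.05, 1 with DESeq2), but the invariant chain Cd74 was at 133, 124 and 155 CPM untreated and 95.9, 98.3 and 110.2 CPM treated. These groups did not overlap (log2 fold change -0.44, SE 0.10, adjusted p = 0.162), and the list's median was -0.28.

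Markers of other cell types were not called in any of 8 lists, where 5 genes had an unadjusted p under 0.05 and DESeq2 called 3. Few members were tested, 4 each of T and NK cells, B cells, neutrophils, and megakaryocytes and erythroid cells. Mast cells and melanocytes had 3 each, dendritic cells 5, and stromal and endothelial cells 14. Over all 15033 genes tested, 8% had an unadjusted p under 0.05 and DESeq2 called 204. The marker genes with the smallest p were Klrb1c of T and NK cells (0.70, adjusted p = 0.721), Ebf1 of B cells (-0.77, adjusted p = 0.811), Mmp8 of neutrophils (0.65, adjusted p = 0.178), Hdc of mast cells (-0.97, adjusted p = 0.727) and Ly75 of dendritic cells (0.97, adjusted p = 0.577). Vwf of endothelial cells was at -0.27 (adjusted p = 0.160), Pf4 of megakaryocytes, which macrophages also express, at 0.64 (adjusted p = 0.254), and Mitf at -0.09 (adjusted p = 0.624). Summed over 13 neutrophil markers the untreated libraries were at 36.2 to 38.2 CPM and the treated ones at 44.6 to 46.8 CPM, and over 13 megakaryocyte and erythroid markers at 171 to 198 and 268 to 311 CPM. Whether such cells take part in the differences was not tested.

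The called genes were then read in 6 libraries outside the contrast that chose them, although all 12 share one estimate of the spread. These were Ifnb1eGFP supernatant against rIFNβ, where IFNβ is present in both groups and melanoma supernatant in one. Of the 45 genes, 42 had the same sign there (36 of 37 higher, 6 of 8 lower), where 57% of all genes tested had the same sign in both. Their groups did not overlap in the same direction for 30 of 45, against 12.8% of all genes in either direction, and 29 had the same sign with an unadjusted p under 0.05 (8.57% of all genes were under it, in either direction). In that comparison 11 of the 45 were called again, all higher, where 0.16% of all genes (24) were called. They were Ms4a4a, Cxcr4, Fcgr2b, Apoc2, Ctsl, Bcl2a1b, Gm56663, Ggta1, Cd93, Thbs1 and Rnf150.

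Log2 fold changes of some called genes in the 2 comparisons stand side by side as follows. Cxcr4 was at 0.84 in each (SE 0.06), Fcgr2b at 0.91 and 0.94 (SE 0.08 each), Ctsl at 0.48 and 0.54 (SE 0.06 each) and Ms4a4a at 1.52 and 1.24 (SE 0.09 and 0.08). Thbs1 was at 0.89 and 1.05 (SE 0.14 each). Ctla2a was at 1.36 (SE 0.29) in the presence of IFNβ and not called (adjusted p = 0.148). Other genes had small values there, among them Ms4a6b (0.15, SE 0.13), Il6ra (0.03, SE 0.04), Icosl (0.03, SE 0.10), Ptger2 (0.00, SE 0.07) and, among those called lower, Dpep2 (-0.03, SE 0.04) and Add3 (-0.07, SE 0.05). The absolute log2 fold change was smaller with IFNβ for 39 of the 45, which were chosen for their size without it.

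The difference of the 2 supernatant effects was called for 0 genes with edgeR, at 661 genes (4.4%) with an unadjusted p under 0.05, and for 12 with DESeq2. Of the 45 called genes, 26 (57.8%) had an unadjusted p under 0.05 for this difference with edgeR. They were chosen by the effect without IFNβ, which is part of the difference, so that share is not comparable with the 4.4%. Against the same untreated libraries, which both comparisons share, rIFNβ gave other values. With it 27 of the 45 genes were higher, 13 lower and 5 not called, where 55.3% of all genes were called. Scd2 was at -3.56 and Lyz2 at -1.44 in that comparison, although both rose with eGFP supernatant, while Lgmn was at 1.82 and Ms4a4a at 2.04.

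**Figure D5:**
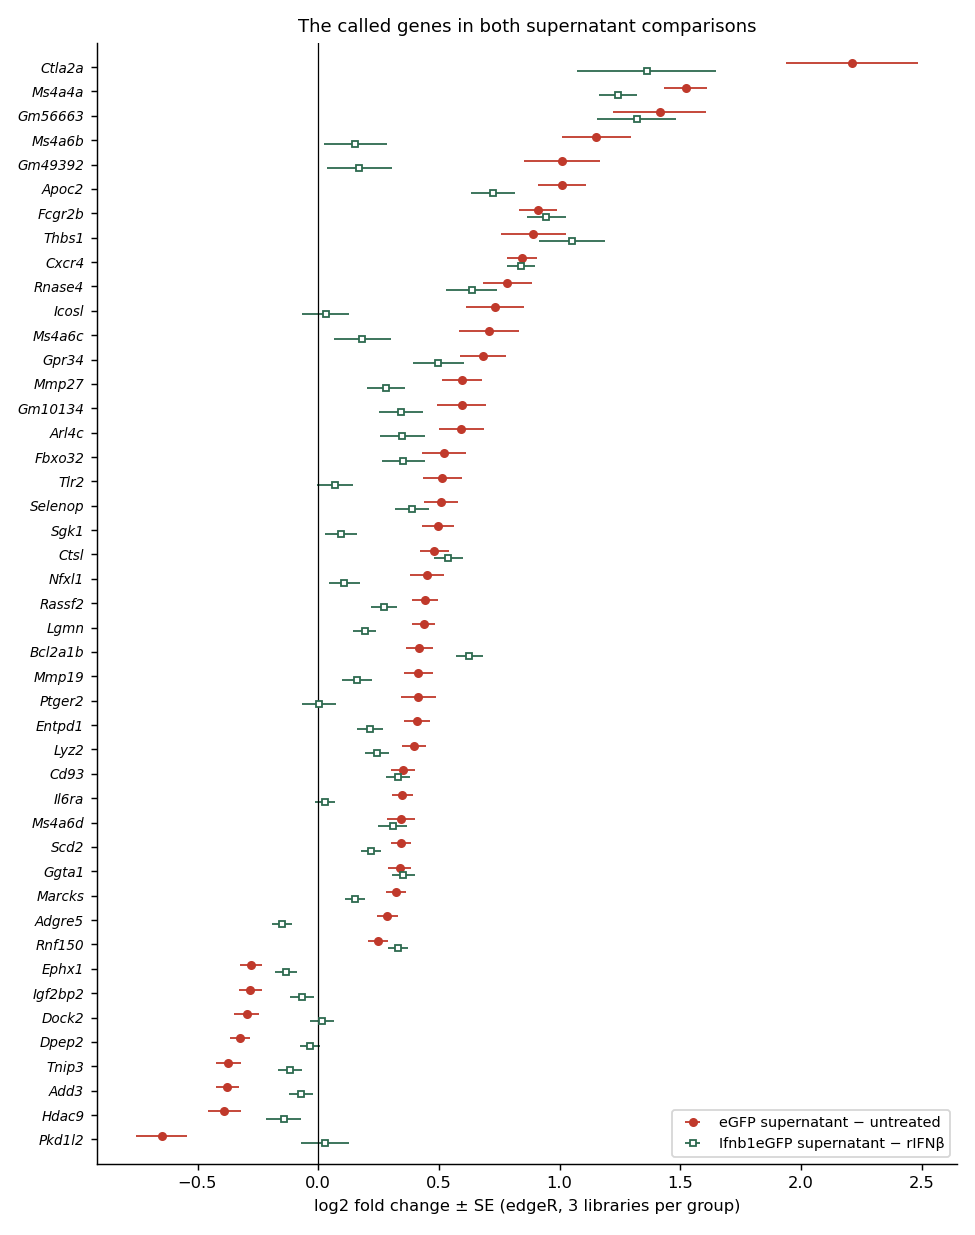
log2 fold change with its SE for the 45 called genes, eGFP supernatant over untreated (red circles, the comparison that chose them) and Ifnb1eGFP supernatant over rIFNβ (green squares, 6 other libraries). 42 genes lie on the same side of 0 in both, and the exceptions are Adgre5, Pkd1l2 and Dock2.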

How the data were processed

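RNA of 12 macrophage libraries was sequenced by the study after TruSeq Stranded Total RNA preparation. The deposited values are expected counts per gene, which the authors made with RSEM 1.3.3. Of these, 12% were not whole (32% of those above 0), and all were rounded to whole numbers here. Positions come from GENCODE M39 (GRCm39), which held 98.7% of the gene IDs, and promoters from RefSeq (GRCm38.p6), for 31 of the 45 called genes.

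One model over all 12 libraries and 4 groups was fitted with edgeR 4.0.16 (R 4.3.3), using filterByExpr, TMM factors, glmQLFit and glmQLFTest, and p-values were adjusted by Benjamini-Hochberg over 15033 genes. The SE is the log2 fold change over the square root of F. Residual degrees of freedom were 8. DESeq2 1.42.0 was an alternative. On simulated data of 15033 genes for this comparison, 27 of 50 genes changed 1.5-fold, 39 of 50 changed 2-fold, 44 of 50 changed 4-fold and 45 of 50 changed 8-fold were recovered, with 3 false calls. Apart from these changed genes the simulation gave all 4 groups the same means. It held no IFNβ response, no replicate effect and no outlying library. Recovery and false calls in the real libraries can therefore differ from these counts.

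Groups and replicate numbers came from the sample labels. The design text gives 3 mice per condition, but whether a replicate number marks the same mouse in several groups is not given in the sources used here, so p-values measure the spread between these libraries. Genes named with values were those called, the member of each list with the smallest p, and a few markers, with exceptions stated in the text. Members and lists were chosen with earlier results of these data known. Alternatives were other normalization, filter, threshold, depth, tool, block and omission of each library. A count floor of 3 covers counting error only.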

Additional observations from a re-analysis of the deposited data

Results flagged for a closer look

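Adgre5, an adhesion receptor of leukocytes, rose with eGFP supernatant and was lower with Ifnb1eGFP supernatant than with rIFNβ, without overlap of the groups in either comparison. It read 59.6, 57.8 and 60.7 CPM untreated and 75.9, 72.1 and 69.4 CPM with eGFP supernatant. With IFNβ present it read 143, 141 and 139 CPM for rIFNβ alone and 123, 131 and 129 CPM with Ifnb1eGFP supernatant. The difference of the 2 log2 fold changes was -0.437 (SE 0.06), and it did not pass adjustment over all genes (edgeR interaction, adjusted p = 0.297). Pkd1l2 and Dock2 also had opposite signs in the 2 comparisons, with overlapping groups in the second, and did not pass either (edgeR interaction, adjusted p = 0.670 and 0.805).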

How the results depend on the processing

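The count of 45 genes became 122 with a replicate block, 204 with DESeq2, 75 with no filter on low counts, 22 with only the 6 compared libraries, 18 with adjusted p up to 0.01 and 1 at the study's thresholds, and 16 to 32 with single libraries left out. It stayed within 1.5 times with RLE factors (47) and thinned libraries (35). All 45 were among the calls of the block and of DESeq2. None of the 45 changed sign in any alternative, which their groups without overlap made unlikely from the start. Of the named genes not called, Retnla and Chil3 changed sign in 2 omissions each. The labels do not say whether equal numbers belong together. In deviations from the group mean, same-numbered pairs of the compared groups correlated at 0.0774 to 0.124, 2 of 3 above 0.1. Pairs with different numbers were at -0.0834 to -0.0215. Each of the 12 libraries correlated best with its own number in another group. The fit behind the 45 calls holds no replicate block, so it does not take up such a shared part. The 45 genes had the same sign in the second supernatant comparison in 42 cases, and in 41 to 43 with libraries left out. Their 11 calls there became 22 with DESeq2, 14 with the block, and 4 to 23 with libraries left out (23 without Ifnb1eGFP supernatant replicate 2, 6 without its replicate 3, and 4, 6 and 7 without rIFNβ replicate 1, 2 and 3). The difference of the effects was called for 0 genes with edgeR and 12 with DESeq2. Leaving out the cell type lists, lists with a called gene numbered 13, against 19 with the block, 25 with DESeq2 and 9 without eGFP supernatant replicate 2. The 2.56-fold excess of summed interferon-stimulated genes became 2.51 without TMM and 2.90 without the 5 members of highest CPM, both chosen after seeing the data. The cause of these shifts was not tested.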
